A study of Mus musculus with 24 samples.

Results

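The integrated stress response genes described here are Nupr1, Ddit3, Atf3, Atf4, Trib3, Chac1, Asns, Sesn2 and Ddit4, 9 of the 23119 gene rows of an RNA-seq table. The set was chosen by the FPKM values of Nupr1 in neural stem cells, which were lower and variable between wild-type and SmcHD1-mutant libraries. The comparison of those groups is therefore given below as a description, with no test. All 9 genes were found by symbol, and all 9 passed the filter of a mean of at least 1 FPKM over the 24 libraries. FPKM gives mapped fragments relative to the length of the transcript and to the size of the library.

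The libraries form 8 groups of 3. All derive from JB4/EI7HZ2, a line of female mouse embryonic stem cells (mESCs) that is an F1 hybrid of JF1 and B6 and carries CAGzeo on the JF1 X and IRESneo on the B6 X. Wild-type (WT) cells and a SmcHD1 knockout (KO) line were each sampled at 4 stages: as mESCs, on day 7 and on day 9 of differentiation towards neuroectoderm in embryoid bodies, and as neural stem cells (NSCs). The mESCs were kept in serum with 2i and LIF. G418 and Zeocin, in the mESC medium and in the media for deriving and keeping NSCs, selected for cells with both X chromosomes. The methods of the study do not list these drugs for the day 7 and day 9 media. The KO line was made with CRISPR-Cas9 and a guide to the part of the gene that encodes the ATPase domain, and the NSCs were derived from the mESCs and grown with FGF2 and EGF. Each genotype is 1 line, so genotype and line cannot be told apart. A legend of the study describes the RNA-seq of these mESCs and their differentiated cells as biologically independent experiments, without naming a genotype. The p-values below measure the spread between these libraries.

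The integrated stress response begins when a kinase such as PERK, GCN2, PKR or HRI phosphorylates the alpha subunit of the translation factor eIF2. General translation slows, whereas translation of the Atf4 mRNA increases, and the ATF4 protein switches on genes of amino acid supply, redox balance and, under long stress, cell death. ATF4 is controlled largely at translation, so its mRNA level is not a measure of its protein. ATF4 binds with C/EBP partners to a composite element called the CARE, and cells in culture are known to activate these genes when amino acids or glucose run low.

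The CARE core was searched in the 250 bases before each gene's start in RefSeq promoters on build GRCm38.p6, as TGATGNAA on both strands. It was present in 4 of the 9 genes, against 1134 of 32851 promoters (3.45%). The 4 windows of 30 bases are shown because these genes, Atf3, Chac1, Asns and Nupr1, include Nupr1 and Chac1, whose levels ranged furthest between libraries. Each is written 5′ to 3′ on the strand of its gene, with the motif in capitals (TTGCATCA is the motif on the opposite strand).
Atf3, chr1:191183425-191183454, minus strand: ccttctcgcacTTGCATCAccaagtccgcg
Chac1, chr2:119351038-119351067, plus strand: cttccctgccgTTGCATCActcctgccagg
Asns, chr6:7693214-7693243, minus strand: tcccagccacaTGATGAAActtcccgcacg
Nupr1, chr7:126625562-126625591, minus strand: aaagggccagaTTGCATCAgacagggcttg
The first base of the motif lay 110 bases before the start in Atf3 and in Nupr1, 193 bases before it in Chac1 and 23 bases before it in Asns. The CRE (TGACGTCA, its own reverse complement), an element of the wider CREB and ATF family, was in the same 250 bases of 0 of the 9 genes and of 508 of all promoters (1.55%), so that no gene held both. A match is a description of letters in a window and not a site of binding.

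The labels were checked first. Smchd1, the targeted gene, lay between 12.96 and 26.41 FPKM in the 12 WT libraries and between 1.824 and 4.399 FPKM in the 12 KO libraries. The summed FPKM of 6 pluripotency markers was 2473 to 2979 in the 6 mESC libraries and 5.72 to 12.6 in the 6 NSC libraries, where 6 NSC markers summed to 4172 to 7231. Read numbers relative to each other, recovered from the steps of low FPKM values, ranged from 0.808 to 1.15, and the absolute depth is unknown. The lowest Pearson correlation between libraries of a group was 0.974. In the stress genes, however, 2 libraries stood apart from the others of their group, WT NSC replicate 1 and WT mESC replicate 1. Values without these libraries stand beside several of the results.

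The gene with the widest range was Nupr1, whose highest library was 106.7 times its lowest. Nupr1 (mm9 chr7:133766760-133768984) encodes a small nuclear protein induced by many stresses. Its level in WT mESCs was 126.4, 14.02 and 28.54 FPKM in replicates 1 to 3, and in KO mESCs 32.63, 24.73 and 28.35 FPKM. On day 7 it was 17.38, 15.3 and 21.19 FPKM in WT and 14.08, 12.27 and 8.812 FPKM in KO cells. On day 9 it was 8.489, 11.17 and 13.06 FPKM in WT and 1.271, 2.072 and 3.209 FPKM in KO cells. On each of these days all WT libraries thus lay above all KO libraries in Nupr1, whereas the mESC groups overlapped. In NSCs it was 5.38, 135.3 and 95.02 FPKM in WT and 4.936, 1.325 and 1.268 FPKM in KO cells. The order of group means was WT NSCs, WT mESCs, KO mESCs, WT day 7, KO day 7, WT day 9, KO NSCs and KO day 9 cells. Neighbours in this order overlapped except KO mESCs with WT day 7, WT day 7 with KO day 7 and WT day 9 with KO NSCs.

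**Figure D1:**
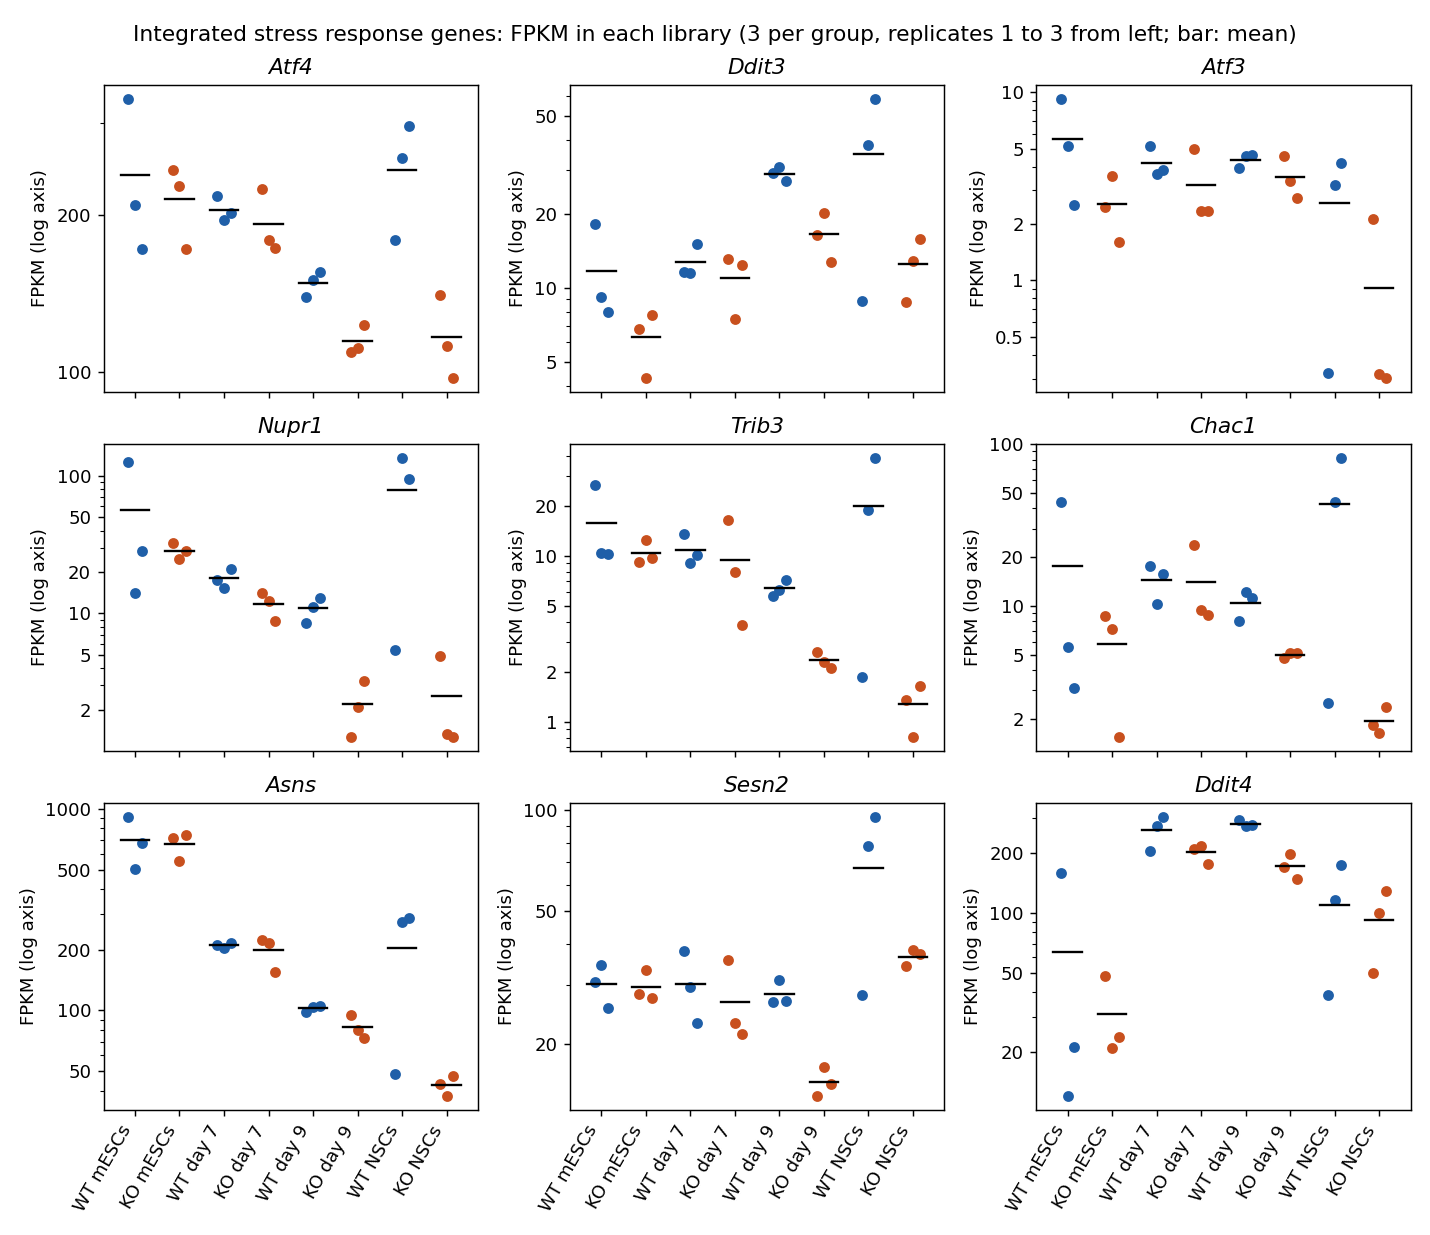
FPKM of the 9 integrated stress response genes in each of the 24 libraries, on log axes, with WT libraries in blue, KO libraries in orange and a bar at the mean of 3. In WT NSCs the left point, replicate 1, is the lowest of the 3 in all 9 panels, and on day 9 the WT and KO points do not overlap in 8 of the 9.

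The transcription factors of the set covered a wide span of levels per length. Atf4 (chr15:80085614-80087971) was the steadiest gene of the 9, with a range of 3.411-fold over all libraries. It was at 332.9, 208.6 and 172.2 FPKM in WT mESCs, 139.0, 150.3 and 155.5 FPKM in WT day 9 cells and 109.5, 111.0 and 122.9 FPKM in KO day 9 cells. In NSCs Atf4 was at 178.9, 256.3 and 295.3 FPKM in WT and 140.2, 112.1 and 97.59 FPKM in KO cells. All WT libraries were above all KO libraries on day 9 and in NSCs.

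Ddit3 (chr10:126727849-126748842) encodes CHOP, a partner of ATF4 linked to cell death under lasting stress. The gene overlaps Mars in this annotation, and whether strand was used in quantification is not given in the sources used here, so reads from both could be shared. Ddit3 was at 18.08, 9.187 and 7.934 FPKM in WT mESCs and 6.785, 4.302 and 7.751 FPKM in KO mESCs, all KO libraries being lower than all WT libraries. It was at 29.2, 30.94 and 27.22 FPKM in WT day 9 cells and 16.37, 20.22 and 12.78 FPKM in KO day 9 cells. In NSCs it was at 8.806, 37.91 and 58.62 FPKM in WT and 8.758, 12.87 and 15.8 FPKM in KO cells, and the lowest WT library fell within the KO range.

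Atf3 (chr1:192994176-193007212), a stress-induced repressor and activator of the ATF family, was low in all groups, with a highest value of 9.197 FPKM in WT mESC replicate 1. In WT NSCs it was 0.3213, 3.221 and 4.181 FPKM, and in KO NSCs 2.123, 0.3165 and 0.3028 FPKM. Replicate 1 was thus the lowest of the WT and the highest of the KO libraries.

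Trib3 (chr2:152163161-152169796) encodes a pseudokinase that restrains ATF4 and CHOP. It was at 26.68, 10.3 and 10.21 FPKM in WT mESCs and 9.116, 12.34 and 9.684 FPKM in KO mESCs. On day 9 it was at 5.745, 6.165 and 7.144 FPKM in WT and 2.621, 2.279 and 2.102 FPKM in KO cells. WT NSCs held 1.85, 18.83 and 38.78 FPKM and KO NSCs 1.358, 0.8099 and 1.646 FPKM. The WT and KO libraries did not overlap on day 9 or in NSCs, although WT NSC replicate 1 was close to the KO values.

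Chac1 (chr2:119176978-119180062), which encodes an enzyme that degrades glutathione, had the second widest range of the set at 52.89-fold. Its values were 43.95, 5.544 and 3.105 FPKM in WT mESCs and 8.695, 7.217 and 1.551 FPKM in KO mESCs. They were 8.021, 12.19 and 11.23 FPKM in WT and 4.727, 5.138 and 5.117 FPKM in KO day 9 cells. In NSCs they were 2.502, 44.02 and 82.05 FPKM in WT and 1.837, 1.643 and 2.358 FPKM in KO cells. The mESC groups overlapped, and the groups of day 9 and of NSCs did not.

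Asns (chr6:7625171-7643182), the enzyme that makes asparagine from aspartate, was highest in mESCs, at 911.9, 504.6 and 675.1 FPKM in WT and 718.8, 552.7 and 745.8 FPKM in KO cells. It was at 97.63, 103.9 and 105.1 FPKM in WT and 95.0, 80.22 and 72.76 FPKM in KO day 9 cells. WT NSC replicates 2 and 3 held 273.6 and 288.2 FPKM, whereas replicate 1 held 48.46 FPKM, next to 42.93, 37.65 and 47.23 FPKM in KO NSCs. In mESCs the genotypes overlapped fully.

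Sesn2 and Ddit4 both restrain the growth kinase complex mTORC1. Sesn2 (chr4:132048722-132066371) was at 26.82, 31.24 and 27.0 FPKM in WT day 9 cells and 14.05, 17.18 and 15.21 FPKM in KO day 9 cells, the lowest of its 8 groups. In NSCs it was at 28.11, 78.04 and 95.47 FPKM in WT and 34.2, 38.23 and 37.16 FPKM in KO cells, so the lowest WT library was below all KO libraries. Ddit4 (chr10:59412423-59414518), which also responds to hypoxia and glucocorticoids, was at 157.9, 12.02 and 21.18 FPKM in WT mESCs and 48.09, 20.93 and 23.83 FPKM in KO mESCs. On day 9 it was at 291.5, 272.6 and 276.1 FPKM in WT and 170.5, 197.4 and 147.0 FPKM in KO cells. In NSCs it was at 38.56, 116.0 and 172.8 FPKM in WT and 49.66, 99.21 and 128.1 FPKM in KO cells, which overlapped.

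In 7 of the 8 groups the spread between libraries was wider for these genes than for the median gene, and it was widest in WT NSCs and WT mESCs. The set was chosen by the variable Nupr1 values of the NSC libraries, so the NSC spreads and counts given next include what chose it and are a description. In WT NSCs the median standard deviation of log2(FPKM + 1) was 1.36 over the 9 genes and 0.218 over all 12105 tested genes. In WT mESCs it was 0.749 against 0.193 and in KO mESCs 0.265 against 0.143. In day 7 cells it was 0.224 against 0.143 for WT and 0.38 against 0.126 for KO cells, and in KO NSCs 0.281 against 0.142. In day 9 cells it was 0.1 against 0.107 for WT and 0.192 against 0.121 for KO cells, so in WT day 9 cells the 9 genes varied no more than the median gene. WT NSC replicate 1 was the lowest of its group in 9 of 9 genes, where 42.9% of tested genes were lowest in that library. It was lower than both other libraries by at least 2-fold in FPKM + 1 in 8 genes, all but Atf4, against 2.87% of tested genes. The highest WT NSC library was 32.8 times the lowest for Chac1, 25.1 times for Nupr1, 21 times for Trib3, 13 times for Atf3 and 1.65 times for Atf4. WT mESC replicate 1 was the highest of its group in 8 of 9 genes, where 41.8% of tested genes were highest there, and it exceeded both others by at least 2-fold in 4 genes, against 1.12%.

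**Figure D2:**
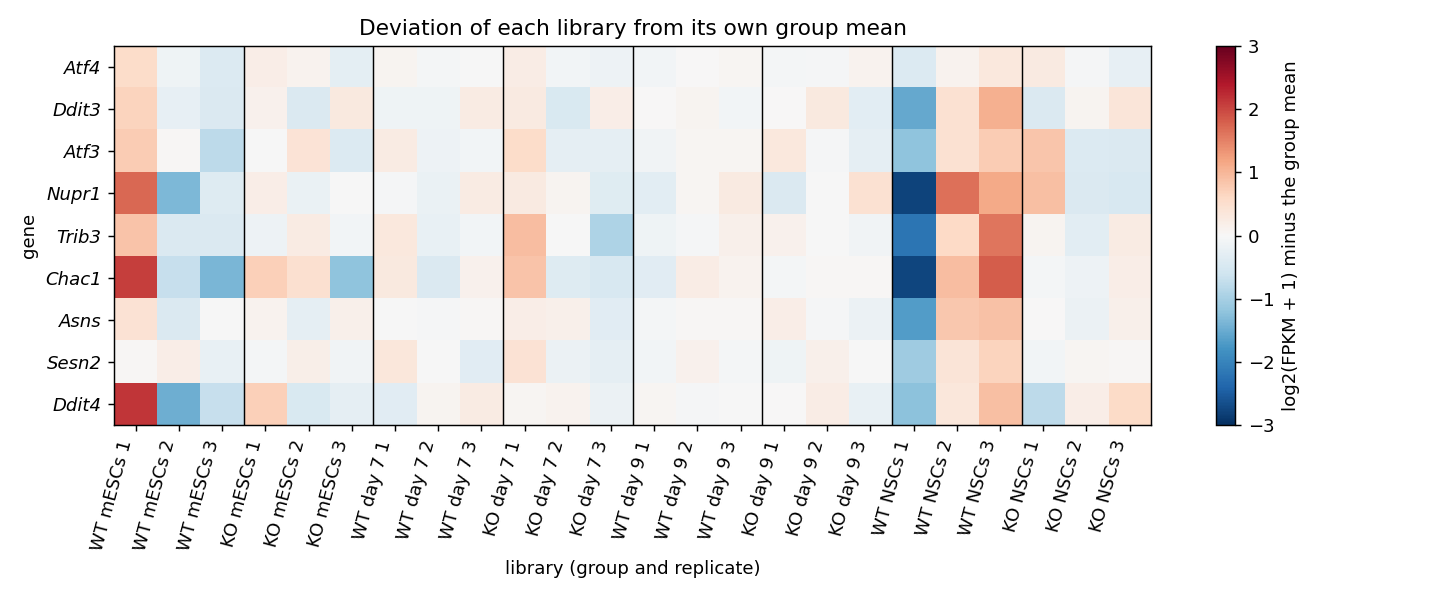
Deviation of log2(FPKM + 1) from the mean of its own group, for 9 genes in rows and 24 libraries in columns, red above and blue below the group mean. The blue column of WT NSC replicate 1 and the red column of WT mESC replicate 1 stand out, with 9 of 9 genes lowest and 8 of 9 genes highest of their group.

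Across the 24 libraries, the deviations from group means of these genes went in the same direction. Pearson's r over the 36 gene pairs had a median of 0.74 and ranged from 0.35 to 0.90, and all 36 were above 0. Without the 3 WT NSC libraries the median was 0.49 over 21 libraries, with 33 pairs above 0. Without the WT mESC libraries as well it was 0.23 over 18 libraries, with 24 pairs above 0 and a range of -0.51 to 0.77. The libraries of a group share their line and stage, and these values are a description. The 5 genes whose levels were most like Nupr1 over the 24 libraries, among 8955 compared, were Cars (r = 0.922), Atf4 (0.918), Trib3 (0.912), Nars (0.902) and Yars (0.889). The median gene had r = 0.030. By deviations from group means the 5 were Sars (0.957), Aldh3a2 (0.905), Limk2 (0.888), Ap3b2 (0.888) and Nars (0.887), with a median gene at -0.059. Without WT NSCs the value for Sars was 0.889, that for Aldh3a2 0.757, for Nars 0.741, for Limk2 0.706 and for Ap3b2 0.685.

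The comparison of KO with WT cells asks whether loss of SmcHD1 goes with a different level of these genes. Outside NSCs the groups were most separated on day 9, where all 9 were lower in KO cells and the libraries of 8 did not overlap, against 16.8% of tested genes that were lower without overlap. Nupr1 was at 2.18 ± 0.974 FPKM in KO and 10.9 ± 2.3 FPKM in WT cells (SD, n = 3 each), a WT to KO ratio of 4.99. Trib3 was at 2.33 ± 0.264 against 6.35 ± 0.718 FPKM, a ratio of 2.72. The values of Chac1 were 4.99 ± 0.232 against 10.5 ± 2.18 FPKM, those of Sesn2 15.5 ± 1.58 against 28.4 ± 2.5 FPKM, and those of Ddit4 172 ± 25.2 against 280 ± 10 FPKM. Atf4 was at 114 ± 7.31 against 148 ± 8.43 FPKM, and Atf3 overlapped between genotypes. In bulk RNA, fewer cells of a type and less RNA per cell cannot be told apart.

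Whether these differences passed a test depended on which libraries set the error. In the fit of all 24 libraries (limma on log2(FPKM + 1), Benjamini-Hochberg adjustment over 12105 genes), 0 of the 9 were called at an adjusted p under 0.05, against 6.68% of tested genes, and 2 of the 9, Nupr1 and Sesn2, had an unadjusted p under 0.05, against 17.3%. The log2 fold change was -0.83 (SE 0.29) for Sesn2 with a limma adjusted p of 0.105, and -1.93 (SE 0.87) for Nupr1 with a limma adjusted p of 0.261. This fit shares 1 spread per gene over the 8 groups, WT NSCs and WT mESCs included. In the fit of the 6 day 9 libraries alone, 7 of the 9 were called, against 11.4% of tested genes. The standard error for Nupr1 was then 0.23 and its limma adjusted p 0.00239. In that limma fit the adjusted p was 0.00138 for Trib3, 0.00163 for Sesn2, 0.00358 for Ddit4, 0.00524 for Chac1, 0.0103 for Ddit3 and 0.0128 for Atf4. Asns (0.0703) and Atf3 (0.339) were not called. With 3 libraries against 3, the exact two-sided permutation test can give no p below 0.1, which it gave for the 8 genes without overlap. The median log2 fold change was -0.81 over the 9 genes and 0 over all tested genes. With all libraries scaled to the same sum of FPKM, the 9 were again below 0 with a median of -0.92, and the share of higher genes among all those called went from 38.6% to 22.7%.

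**Figure D3:**
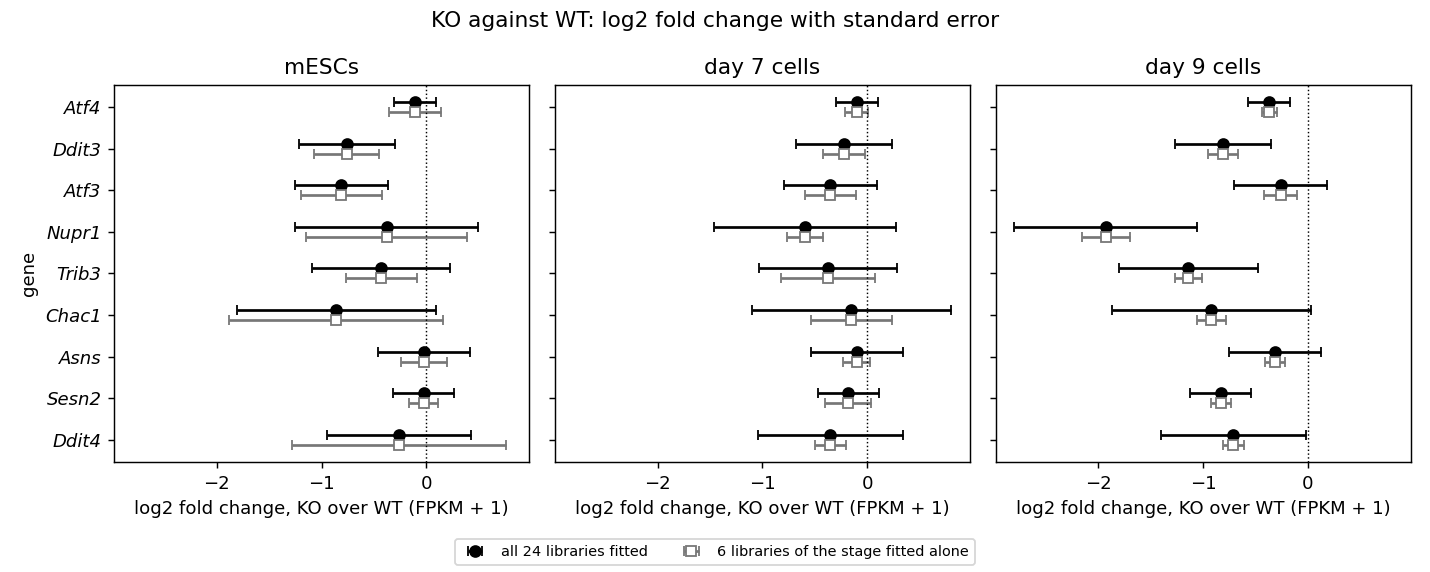
log2 fold change of KO over WT on the log2(FPKM + 1) scale, with its standard error, for the 9 genes in mESCs, day 7 and day 9 cells; filled circles are from the fit of all 24 libraries and open squares from the 6 libraries of the stage. On day 9 all 9 points lie below 0, and the squares of all 9 genes have errors of 0.23 or less.

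Markers of other cell types also differed on day 9. The summed FPKM of 5 mesenchyme markers, all detected, was 33.3, 83.6 and 79.4 in WT and 33.3, 21.2 and 29.2 in KO cells. Of the 5, 4 were called lower in KO cells (limma, all libraries), against 4.11% of tested genes. That of 5 endoderm markers was 27.2, 50.7 and 41.6 against 3.51, 11.6 and 2.68, with Afp at 0 in KO cells. The 4 neuron markers in the table summed to 494 to 540 in WT and 265 to 369 in KO cells, 6 NSC markers to 1410 to 1716 and 1663 to 1895, 6 pluripotency markers to 57.7 to 85.8 and 74.4 to 121, and 4 astrocyte markers to 1.5 to 2.64 and 0.834 to 1.43. Single markers went against the NSC sum, as Slc1a3 (-1.50, limma adjusted p = 0.000381) and Olig2 (-1.29, adjusted p = 0.0127, a call lost under 4 alternatives) were called lower in KO cells. The neuron marker Stmn2 was called lower as well (-0.78, limma adjusted p = 0.00233, not called with a pseudocount of 0.1). Their part in the result was not tested.

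In mESCs and day 7 cells 0 of the 9 genes were called by either fit. In mESCs 0 of the 9 genes were called, against 0.529% of tested genes, 0 were called with the 6 mESC libraries alone, against 0.00826%, and 0 had an unadjusted p under 0.05, against 7.66%. Only Ddit3 did not overlap between genotypes, against 5.93% of tested genes that were lower without overlap. All 9 log2 fold changes were below 0, with a median of -0.38, but without WT mESC replicate 1 only 3 of the 9 were, and the median was 0.16. The replicate numbers pair the mESC libraries by the check given with the methods, and 2 of the 9 genes, Ddit3 and Atf3, were lower in the KO library of all 3 same-numbered pairs, against 16.7% of tested genes. On day 7, 0 of the 9 were called, against 3.68% of tested genes, and 0 with the 6 day 7 libraries alone, against 3.73%. Only Nupr1 did not overlap, with a log2 fold change of -0.59 (SE 0.87, limma) and a background of 12.3%. The median of -0.22 became -0.045 without KO day 7 replicate 3, which was the lowest KO library in 8 of the 9 genes, and without KO day 7 replicate 1, the highest in 8, the number lower without overlap was 5, against 17.4% of tested genes in the same libraries. The difference between the KO effect on day 9 and that in mESCs was called for 0 of the 9 (2.68% of tested genes), as was that between day 7 and mESCs (1.68%). With the mESC and day 9 libraries fitted alone it was called for Sesn2, at -0.81 (limma adjusted p = 0.0277), against 2.75% of tested genes.

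In NSCs, where the genes were chosen, all 9 had lower means in KO than in WT cells, and 5 did not overlap, namely Nupr1, Atf4, Trib3, Chac1 and Asns (8.54% of tested genes were lower without overlap). The ratio of WT to KO means was 31.3 for Nupr1, 22 for Chac1, 15.6 for Trib3, 4.77 for Asns, 2.82 for Atf3, 2.81 for Ddit3, 2.09 for Atf4, 1.84 for Sesn2 and 1.18 for Ddit4. The median log2 difference was -1.11, and it was -1.87 without WT NSC replicate 1, where 8 genes did not overlap, against 17.9% of tested genes that were lower without overlap in the same libraries. Without that library the log2 difference was -5.18 in place of -3.79 for Nupr1, -4.38 in place of -3.01 for Chac1, -3.65 in place of -2.55 for Trib3 and -2.70 in place of -1.86 for Asns. It was -1.87 in place of -1.11 for Ddit3, -1.42 in place of -0.81 for Atf3, -1.25 in place of -1.04 for Atf4, -1.22 in place of -0.69 for Sesn2 and -0.71 in place of -0.098 for Ddit4. Leaving out either other WT NSC library made all 9 differences less negative, or above 0 for Ddit4. Without WT NSC replicate 3 the median was -0.89, with Nupr1 at -3.23, Chac1 at -2.10, Trib3 at -1.74, Asns at -1.42, Atf4 at -0.89, Ddit3 at -0.57, Atf3 at -0.43, Sesn2 at -0.36 and Ddit4 at 0.35. Nupr1 was at -2.97 without WT NSC replicate 2. Within same-numbered pairs, 6 of the 9 genes were lower in the KO library of all 3, against 17.6% of tested genes, namely the 5 above and Ddit3, whose first pair differed by 8.806 against 8.758 FPKM. NSC markers summed to 5650, 7231 and 5795 FPKM in WT and 5026, 4917 and 4172 FPKM in KO NSCs, but single markers of WT NSC replicate 1 stood apart, with Nes at 266.6 FPKM against 97.54 to 140.0 FPKM and Slc1a3 at 169.0 FPKM against 337.9 to 379.5 FPKM in the other 5 NSC libraries. Astrocyte markers summed to 7.84, 31.5 and 40.6 FPKM in WT NSCs, lowest in the library where the stress genes were lowest, and to 45.9, 44.1 and 136 FPKM in KO NSCs. Neuron markers were likewise lowest in that library, at 8.57, 28.3 and 25.6 FPKM in WT and 11.5, 14.8 and 15.1 FPKM in KO NSCs, with Stmn2 at 0 in KO cells, and Tubb3 was at 5.746, 21.6 and 18.7 FPKM in WT and 7.152 to 9.722 FPKM in KO NSCs. Mesenchyme markers summed to 6.86, 0.329 and 0.236 FPKM in WT NSCs and to 12.5, 0.675 and 0.987 FPKM in KO NSCs, replicate 1 being the highest of each genotype. Their part in the result was not tested.

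Between stages, Asns and Ddit4 were called on both days in both genotypes. The 3 WT comparisons share the WT mESC libraries and the 3 KO comparisons share the KO mESC libraries, so they are not independent of each other. From mESCs to day 7, 2 of the 9 genes were called in each genotype, against 59.2% of tested genes in WT and 61.3% in KO cells, so the share of called members was below the background. Ddit4 rose by 2.84 on the log2 scale in WT (SE 0.69, limma adjusted p = 0.00193) and rose by 2.75 in KO cells (SE 0.69, limma adjusted p = 0.00232). Asns fell by 1.69 in WT (SE 0.44, limma adjusted p = 0.0029) and fell by 1.76 in KO cells (SE 0.44, limma adjusted p = 0.0019). The rise of Ddit4 in WT cells was 3.92 without WT mESC replicate 1, in which Ddit4 was at 157.9 FPKM against 12.02 and 21.18 FPKM. It was 2.11 without WT mESC replicate 2, and it was not called with the WT day 7 and mESC libraries fitted alone (limma adjusted p = 0.081). With only the groups of the comparison fitted, 1 of the 9 genes was called in WT (52.9% of tested genes) and 4 in KO day 7 cells (64.9%). Same-sum scaling, which shifted the median gene by 0.19 in WT and 0.18 in KO cells, took the share of higher genes among those called from 49.1% to 66.4% and from 48.1% to 63.3%.

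By day 9, 4 of the 9 genes were called in WT (71.5% of tested genes) and 7 in KO cells (71.3%). Relative to mESCs of the same genotype, Asns fell by 2.72 in WT (limma adjusted p = 2.18e-05) and fell by 3.01 in KO cells (adjusted p = 6.68e-06). Ddit4 rose by 2.97 in WT (limma adjusted p = 0.000975; 0.0504 with the WT day 9 and mESC libraries alone; log2 fold change 4.05 without WT mESC replicate 1 and 2.24 without WT mESC replicate 2) and by 2.52 in KO cells (adjusted p = 0.00352). Ddit3 rose by 1.32 in WT (limma adjusted p = 0.0149) and by 1.27 in KO cells (limma adjusted p = 0.0186). Its call in WT was lost without WT mESC replicate 2 or 3 (limma adjusted p = 0.0523 and 0.0641), and that in KO cells without KO mESC replicate 2 or KO day 9 replicate 2 (0.0779 and 0.0655). Atf4 fell by 0.62 in WT (SE 0.20, limma adjusted p = 0.00819), a call lost without WT mESC replicate 1 (log2 fold change -0.35), and fell by 0.88 in KO cells (limma adjusted p = 0.000465). Nupr1 fell by 3.25 (SE 0.87, limma adjusted p = 0.00313), Trib3 fell by 1.76 (SE 0.66, adjusted p = 0.0229) and Sesn2 fell by 0.89 (SE 0.29, adjusted p = 0.00989) in KO cells. The call for Trib3 was lost without KO mESC replicate 2 or KO day 9 replicate 2 or 3 (limma adjusted p from 0.0501 to 0.0638). Scaling all libraries to the same sum of FPKM shifted the median of all genes by 0.32 in WT and 0.24 in KO day 9 cells, and raised the share of higher genes among those called from 50.9% to 69.1% and from 50.1% to 64%. Under it Atf4 in WT (-0.25) and Trib3 (-1.51) and Sesn2 (-0.62) in KO cells were no longer called.

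From mESCs to NSCs, Nupr1 was left untested, because the NSC libraries were used to choose it, and 8 genes remained. In WT NSCs 4 of the 8 were called (75.2% of tested genes), and in KO NSCs also 4 (76%). Asns fell in both, with a log2 fold change of -2.10 in WT (SE 0.44, limma adjusted p = 0.000275) and of -3.94 in KO NSCs (SE 0.44, adjusted p = 1.63e-07). In WT NSCs Ddit3 rose by 1.24 (limma adjusted p = 0.0204) and Sesn2 by 0.96 (adjusted p = 0.00571), whereas Atf3 fell by 0.98 (adjusted p = 0.0495). In KO NSCs Trib3 fell by 2.33 (limma adjusted p = 0.00368), Atf4 fell by 0.87 (adjusted p = 0.000464) and Atf3 fell by 0.98 (adjusted p = 0.0495). The call for Atf3 was lost under 9 alternatives in WT and 7 in KO NSCs. That for Ddit3 was lost without WT mESC replicate 2 or 3 or WT NSC replicate 2 or 3 (limma adjusted p from 0.067 to 0.149), and that for Sesn2 without WT NSC replicate 3 (limma adjusted p = 0.0544). Without WT NSC replicate 3 the log2 fold change was 0.70 for Ddit3 and 0.62 for Sesn2. With the WT NSC and mESC libraries fitted alone, neither Ddit3 (limma adjusted p = 0.129) nor Sesn2 (0.0691) was called, and 1 of the 8 genes was, against 64.1% of tested genes. With the KO libraries alone 7 of the 8 were, against 76.4%. Without WT NSC replicate 1 the log2 fold change was -1.27 for Asns, 2.00 for Ddit3, 1.49 for Sesn2 and -0.37 for Atf3. That library was singled out by its low values in these same genes, so no test of them is given without it. Without WT mESC replicate 1, 5 genes were called, and Atf3 was not (-0.60, limma adjusted p = 0.248). Same-sum scaling shifted the median gene by 0.37 in WT and 0.44 in KO NSCs, took the share of higher genes among those called from 49.1% to 66.2% and from 49.7% to 68.3%, and ended the call for Atf4 in KO NSCs (-0.35).

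Other genes of the pathway were followed in lists chosen with earlier results of these data known. Among direct regulators, the list of 13 eIF2 kinases, phosphatase subunits, eIF2 subunits and eIF2B subunits had a median log2 fold change of -0.029 for KO over WT on day 9. The only call was Eif2ak4, which encodes GCN2, the kinase that senses uncharged tRNA, and it rose by 0.46 (limma adjusted p = 0.0234). That call was lost with same-sum scaling, without WT day 9 replicate 2 or 3 and without any 1 of the KO day 9 libraries. Of 7 tested transcription factors and partners of ATF4, 7 were below 0 with a median of -0.26, and 0 were called in the fit of all 24 libraries. With the day 9 libraries alone 2 were called lower, against 6.82% of tested genes.

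The effector lists had day 9 medians below 0 as well. All 12 aminoacyl-tRNA synthetases, which charge tRNAs and include several ATF4 targets, were below 0 with a median of -0.22. The entry for Aars also covers Exosc6. Of 12 other tested ATF4 targets 11 were below 0 (median -0.39), of 9 amino acid transporters 7 (median -0.40), and of 13 serine, glycine and one-carbon enzymes 8 (median -0.13). In the fit of all 24 libraries 0 genes of these 4 lists were called lower, against 4.11% of tested genes. With the day 9 libraries alone 3 synthetases, 5 other targets, 5 transporters and 4 enzymes were, against 6.82%. In that fit 1 of the serine, glycine and one-carbon enzymes was called higher. The synthetases summed to 805, 862 and 835 FPKM in WT and 707, 741 and 685 FPKM in KO cells, which did not overlap.

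Stress pathways outside the ATF4 branch were mixed on day 9. All 12 p53 targets were below 0, with a median of -0.42, and 4 were called lower in KO cells, against 4.11% of tested genes. Plk2, a polo-like kinase, fell by 1.71 (limma adjusted p = 0.00141), Cdkn1a, the cell cycle inhibitor p21, fell by 1.60 (adjusted p = 4.68e-05) and Phlda3, an inhibitor of AKT, fell by 1.03 (adjusted p = 3.49e-05). On day 7 all 12 were below 0 as well (median -0.45), and 5 were called lower, against 2.5% of tested genes, among them Perp at -1.23 (not called with a pseudocount of 0.1 or without WT day 7 replicate 2) and Cdkn1a at -1.07. On day 7 the endoderm markers summed to 20.1 to 51.1 FPKM in WT and 0.496 to 1.47 FPKM in KO cells, with Afp at 0 in WT cells and Foxa2 (-4.09) and Sox17 (-2.69) called lower, and the mesenchyme markers to 33.1 to 46.3 and 11.5 to 16.1 FPKM. Their part in the result was not tested. Among 20 ER chaperones and targets of ATF6 and XBP1, 19 were below 0 on day 9 (median -0.29), and Xbp1, the transcription factor of the IRE1 branch, fell by 0.43 (limma adjusted p = 0.0125; not called without WT day 9 replicate 2 or 3). The 11 tested hypoxia targets were all below 0 (median -0.42) with 0 called. In contrast, 6 of 7 NRF2 targets (median 0.19) and 4 of 6 heat shock genes (median 0.092) were above 0, with 0 called in either list. With the day 9 libraries alone 7 of the 12 p53 targets, 7 of the 20 ER genes and 7 of the 11 hypoxia targets were called lower, against the 6.82% of tested genes given above. In that fit 1 NRF2 target was called higher and 0 lower, and 0 heat shock genes were called, against 11.4% of tested genes called in either direction. The differences between lists were not tested.

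In NSCs the lists, given as description, split. All 12 synthetases were lower in KO NSCs (median -0.92), as were all 9 tested transporters (median -0.78) and 10 of 13 serine, glycine and one-carbon enzymes (median -0.72). Other ATF4 targets were mixed, with 8 of 12 lower (median -0.31), as were transcription factors and partners of ATF4, with 4 of 7 lower (median -0.61), and the eIF2 list, with 6 of 13 lower (median 0.028). In contrast, 18 of 20 ER chaperones and targets of ATF6 and XBP1 were higher (median 0.25), as were 11 of 12 p53 targets (median 0.33). The synthetases summed to 776, 1344 and 1578 FPKM in WT and 674, 588 and 660 FPKM in KO NSCs. The transporters summed to 334, 854 and 975 FPKM in WT and 297, 303 and 332 FPKM in KO NSCs. Serine, glycine and one-carbon enzymes summed to 799, 1711 and 1608 FPKM in WT and 892, 875 and 843 FPKM in KO NSCs. In each of these 3 lists WT NSC replicate 1 was far below replicates 2 and 3, as in the 9 genes, and it lay below all KO libraries for the serine list. The ER list went the other way within WT NSCs, with 1864, 1253 and 1425 FPKM, highest in replicate 1.

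**Figure D4:**
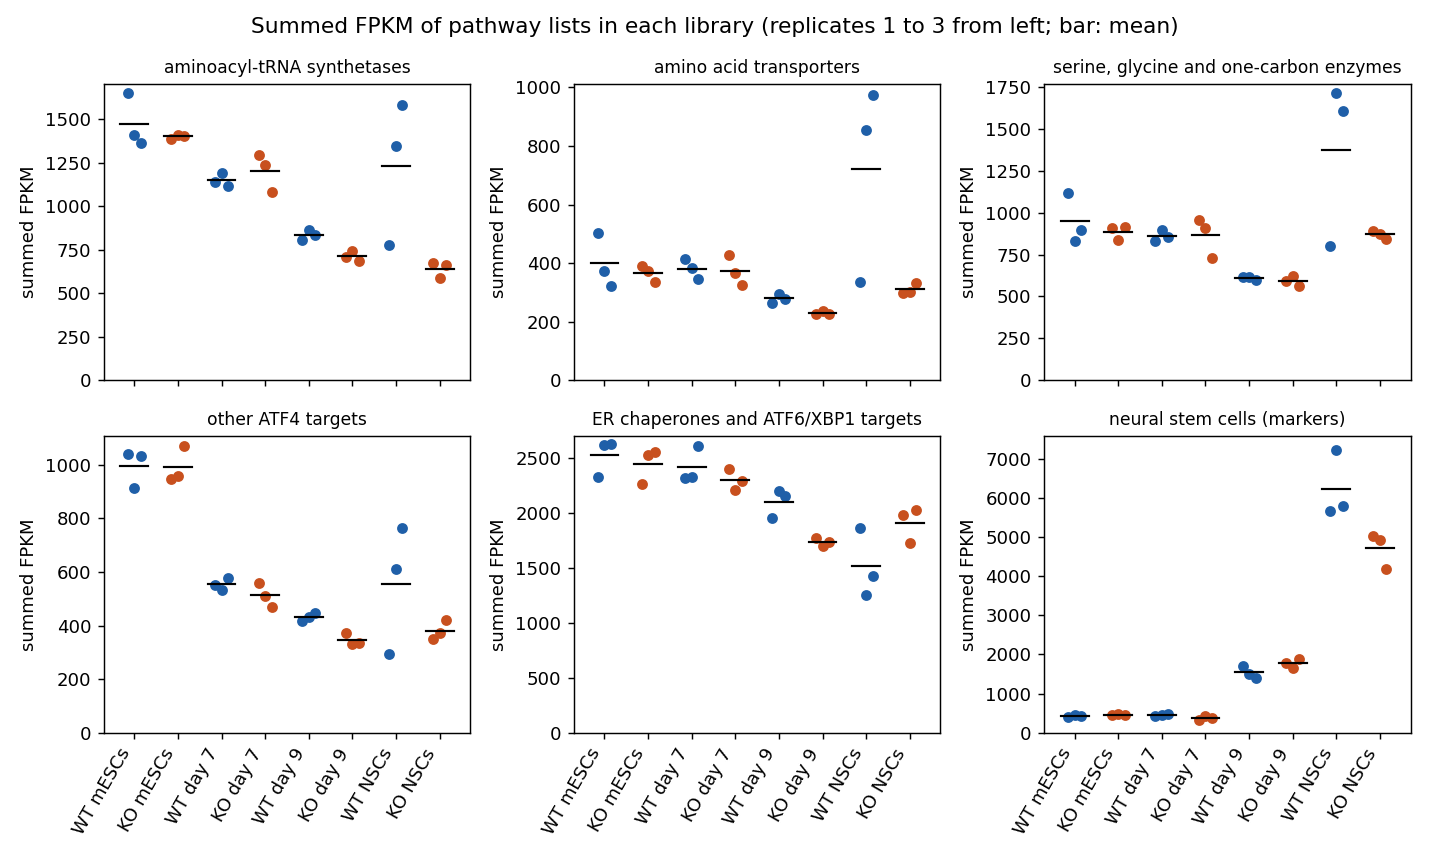
Summed FPKM of 5 pathway lists and the NSC markers in each library, on axes that start at 0, WT in blue and KO in orange with a bar at the mean of 3. WT NSC replicate 1 (776 for the synthetases, 334 for the transporters) sits near the KO NSC libraries.

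The lists were also followed across WT stages. Of the 13 regulators and subunits of eIF2, 8, 9 and 8 were called lower on day 7, on day 9 and in NSCs relative to WT mESCs, with medians of -0.46, -0.68 and -0.66. Nfe2l2, which encodes NRF2, was at -1.11 on day 7 and -1.59 on day 9. Atf5, a relative of ATF4 that is likewise controlled by eIF2 phosphorylation, rose by 1.43 on day 7, 1.69 on day 9 and 2.39 in NSCs relative to WT mESCs (limma adjusted p = 0.00031, 3.4e-05 and 3.19e-07). Cebpg, a C/EBP partner of ATF4, rose by 1.04, 1.45 and 1.47. Of the 12 synthetases 4 were called lower on day 7, 11 on day 9 and 5 in NSCs. On day 9 Tars fell by 1.23, and the joint entry of Aars and Exosc6 fell by 1.16. Of 13 serine, glycine and one-carbon enzymes 7 were called lower on day 9, including Cbs (-3.40), Cth (-2.09) and Shmt1 (-1.74). In WT NSCs 5 were called higher and 3 lower, with Gpt2 at 2.87 and Aldh1l2 at 2.77. Of 9 transporters 5 were called higher in WT NSCs, with Slc6a9, a glycine transporter, at 3.09 and Slc1a4, a carrier of small neutral amino acids, at 1.74 (the latter not called with the 2 groups fitted alone). Without WT NSC replicate 1, 2 synthetases were called higher and 3 lower in place of 0 and 5, 8 enzymes of the serine list higher and 2 lower, and 7 transporters higher, and the median of the synthetases was 0.09 in place of -0.29. That library was singled out by its low values in the 9 genes, so these counts are a description. Of all tested genes 59.2%, 71.5% and 75.2% were called at these stages in either direction, so a call was the common case. Of these calls 49.1%, 50.9% and 49.1% were higher, so list counts in 1 direction are not like the share in either direction.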

How the data were processed

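RNA of WT and SmcHD1-KO cells at 4 stages was sequenced in 24 libraries, 3 per group. The authors trimmed reads with Trim Galore 0.6.6, aligned them to mm9 with TopHat2 2.1.1, removed rRNA and X-linked reads and deposited FPKM values from Cuffdiff. The deposited table also holds an estimate status for each value, the other unit used here, and confidence bounds, which were not used. The library kit kept strand, but strand use and normalization in Cuffdiff are not given in the sources used here. FPKM is relative to length and to all mapped reads, so a change in a few abundant genes shifts all others. Of 36 FPKM columns, 12 belong to samples of other studies and were not used. All 1091 rows on X or Y were at 0 in all libraries and were left out, as was 1 gene with a failed estimate and genes at 0 throughout, leaving 18156. Of 31400 values of low genes, 29826 (94.99%) were whole multiples of a gene's lowest step within 0.05, from which relative read numbers were computed. Counting error cannot be set without the absolute depth.

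The main test was limma 3.58.1 in R 4.3.3 on log2(FPKM + 1) of 12105 genes with a mean of at least 1 FPKM, with 8 group means and no covariate, moderated with an intensity trend and robust weights (statmod 1.5.0), two-sided, with Benjamini-Hochberg adjustment over all 12105 genes and an adjusted p under 0.05 as the threshold for a call. Fold changes on this scale understate those of low genes. Sums, correlations, exact permutation tests, motif searches and figures were made with Python 3.11.15, pandas 2.3.3, numpy 2.4.6, scipy 1.17.1 and matplotlib 3.10.9. The scripts were tested on simulated data. No 2 libraries of a group shared more than 0.00679% of their values above 0.

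The members and lists were chosen with earlier results of these data known, so no p was adjusted over a list alone. All 9 members are named, and in each pathway list up to 3 called genes with the largest absolute log2 fold change per comparison outside KO against WT in NSCs; the text gives a part of these. The replicate numbers come from the labels. Same-numbered KO and WT libraries deviated from their group means together in mESCs (r = 0.289, 0.435 and 0.141) and in NSCs (0.335, 0.184 and 0.24), which counts as paired. The alternatives were another pseudocount, other filters, 2 scalings, a replicate block, the groups of a comparison alone and each library left out.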

Additional observations from a re-analysis of the deposited data

How the results depend on the processing

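For the 9 genes in KO against WT mESCs, day 7 and day 9 cells, and for those of them called between stages, 584 alternatives kept the direction and the side of the threshold, 37 lost a call, 8 gained one, all on day 9, and 16 turned the direction, all 16 by leaving out 1 library. Calls gained by genes that were not called between stages are not in these numbers. In KO against WT NSCs, which has no test, 3 more alternatives turned the sign, all of Ddit4. In KO against WT mESCs, where 0 of the 9 genes were called under any alternative, the log2 fold change ranged over the left-out libraries from -1.06 to 0.48 for Nupr1, -0.31 to 0.16 for Atf4, -0.65 to 0.0049 for Trib3, -1.54 to 0.18 for Chac1, -0.23 to 0.19 for Asns, -0.14 to 0.069 for Sesn2 and -0.99 to 0.82 for Ddit4. On day 7 it ranged from -0.35 to 0.018 for Ddit3, -0.83 to 0.09 for Trib3, -0.58 to 0.089 for Chac1 and -0.20 to 0.07 for Asns. In NSCs it ranged from -0.71 to 0.35 for Ddit4. The number of called genes with only the groups of the comparison fitted was 7 in place of 0 for KO against WT on day 9 (11.4% of tested genes), 1 in place of 2 for WT day 7 cells (52.9%), 1 in place of 4 for WT NSCs (64.1%), 4 in place of 2 for KO day 7 cells (64.9%), 7 in place of 4 for KO NSCs (76.4%) and 1 in place of 0 for the day 9 minus mESC difference (2.75%). For WT NSCs it ranged from 2 to 5 over the left-out libraries. With the replicate block, 0 of the 9 genes were called in mESCs and on day 7, and 1 on day 9, Sesn2 (limma adjusted p = 0.0294). In WT NSCs against WT mESCs the block gave 3 calls in place of 4, without Atf3, and it changed no other call of the 9 genes. On day 7 and day 9 the same-numbered KO and WT libraries had correlations from -0.107 to 0.0957, so there the numbers are not shown to pair the libraries, and the same holds between stages. As the absolute depth is unknown, counting error could not be told apart from other spread between the 3 libraries of a group, and 1 line per genotype limits what can be said of SmcHD1.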

Other observations

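Stress lists outside the integrated stress response were followed across WT stages, relative to WT mESCs. NRF2 targets, the antioxidant and detoxification genes, were called lower in 5 of 7 on day 7, 7 of 7 on day 9 and 6 of 7 in NSCs. Nqo1, a quinone reductase, had log2 fold changes of -2.09, -3.76 and -2.14 (limma adjusted p = 1e-07, 4.25e-12 and 2.84e-08). Of 6 tested heat shock genes 4, 4 and 5 were called lower, and 1 was called higher on day 9. Hspb1, a small heat shock protein, was at -2.36, -4.00 and -8.10 on the log2 scale, and Hsp90aa1, a cytosolic chaperone, at -0.99, -1.73 and -3.06. Of 11 tested hypoxia targets 8 were called higher on day 7 and 8 on day 9, whereas in NSCs 2 were called higher and 6 lower (4 and 3 without WT NSC replicate 1, 2 and 4 without WT mESC replicate 1). Adm, which encodes the vasodilator adrenomedullin, rose by 2.87, 2.92 and 2.07, and Slc2a1, the glucose transporter GLUT1, was at 1.15 on day 7 and -2.97 in NSCs. Eif2s2, the beta subunit of eIF2, was at -1.94, -2.78 and -2.76. The 3 comparisons share the WT mESC libraries. Of all tested genes 59.2%, 71.5% and 75.2% were called in either direction, and 49.1%, 50.9% and 49.1% of these calls were higher. Most list counts here are for 1 direction, so the share in either direction is not their like background. All calls of the NRF2 list were lower, and whether the 3 lists differ from other genes was not tested.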
